A study of Mus musculus with 20 samples.

Results

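The genes described here are 10 members of the transcriptional response to low oxygen in mouse cells: Hif1a, Egln3, Ankrd37, Ak4, Vegfa, Bnip3, Pdk1, Slc2a1, Ldha and Ndrg1. They were found by gene symbol among the 25869 genes of the deposited expression table, and each of the 10 was present. The set was chosen by measured values of these libraries. Ankrd37 was known to be higher in mouse embryonic fibroblasts (MEFs) carrying a guide to Bcl2 than in MEFs with a non-targeting guide, and Ak4 was known to be nearly absent from primary lymphomas. Those 2 contrasts are therefore given as values, with no p for the 10 genes, and the counts of genes past a threshold there only describe the libraries.

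In cells with enough oxygen, the prolyl hydroxylases mark the HIF-1α protein for destruction by the VHL complex. When oxygen falls, the hydroxylases slow down, HIF-1α persists, pairs with ARNT and binds short motifs near its target genes. The targets move glucose into lactate, divert pyruvate from mitochondria, remove mitochondria and call in blood vessels. Because HIF-1α is controlled mostly as a protein, the level of Hif1a RNA is not a measure of HIF activity. In B-lineage cells the MYC protein also drives several of the glycolytic targets.

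The study expressed a CRISPR activation cassette (dCas9-VP64 with MS2-p65-HSF1, called dCas9a-SAM) from the Rosa26 locus under the CAG promoter and used it to raise endogenous Bcl2. RNA-seq was performed on 20 libraries. There were 10 MEF libraries, from embryos at day 14 of gestation: 2 were wild-type (WT), 2 came from 2 dCas9a-SAM KI/+ MEF lines without an sgRNA, 2 from those lines with the non-targeting sgNT, and 4 from those lines with sgBcl-2, with 2 libraries per line. The labels do not say what separates the 2 sgBcl-2 libraries of a line, nor which of the study's Bcl2 guides was used. There were 6 cell lines from lymphomas of the genotype Eµ-Myc/dCas9a-SAM KI/+ that carried sgBcl-2. Of these 4 were IgM-positive, labelled 14_179_IgMp, 15_180_IgMp, 16_202_IgMp and 17_213_IgMp and called lines A, B, C and D here, and 2 were IgM-negative, labelled 18_214_IgMn and 19_216_IgMn and called lines E and F. The Eµ-Myc transgene drives Myc in B-lineage cells. These lymphomas arose in irradiated mice given transduced foetal liver cells, and clonotyping showed a monoclonal origin for the primary tumours and lines it was run on, which need not be every line here. There were also 2 primary IgM-positive tumours, from the same 2 mice as line A and line B, which can hold host cells, and 2 BCR-ABL1 (p190T/+) preB-ALL libraries whose titles name Erg alleles (CreER-LSL-Erg and Rag-Cre-Erg). No group was given low oxygen: every library is labelled as untreated. A line gave 1 library except in the sgBcl-2 MEFs, so p-values measure the spread between these lines and libraries.

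Library depth was 12474885 to 26678417 reads counted on genes, with a median of 23229458. Levels are in CPM, the reads of a gene scaled to a common library total. Bcl2, the target of the guide, was at 13.4 and 13.7 CPM in the sgNT MEFs and at 46.8 to 71.8 CPM in the sgBcl-2 MEFs. It was at 99.4 to 165 CPM in the lymphoma lines, 235 and 244 CPM in the tumours and 20.8 and 22 CPM in preB-ALL. WT MEF library 2 and both preB-ALL libraries stood apart. The fibroblast markers of WT MEF library 2 summed to 1411 CPM, against 7616 to 13229 CPM in the other 9 MEF libraries, and its 8 macrophage markers summed to 231 CPM, against 5.63 to 9.06 CPM. The preB-ALL libraries held 1259 and 2760 CPM of fibroblast markers, against 1.74 to 5.44 CPM in the 6 lymphoma lines. They were also grown in another medium, extracted with another RNA kit and sequenced in another run. Their column names carry the word subjunc, which those of the other libraries do not, so their reads may have been mapped in another way. These differences and the group cannot be told apart. Mitochondrial genes took 2.24% to 2.90% of reads in the MEFs, 5.30% to 7.18% in the lymphoma lines, 7.80% and 9.04% in the tumours and 0% in preB-ALL, and the part of this in the results was not tested.

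**Figure D1:**
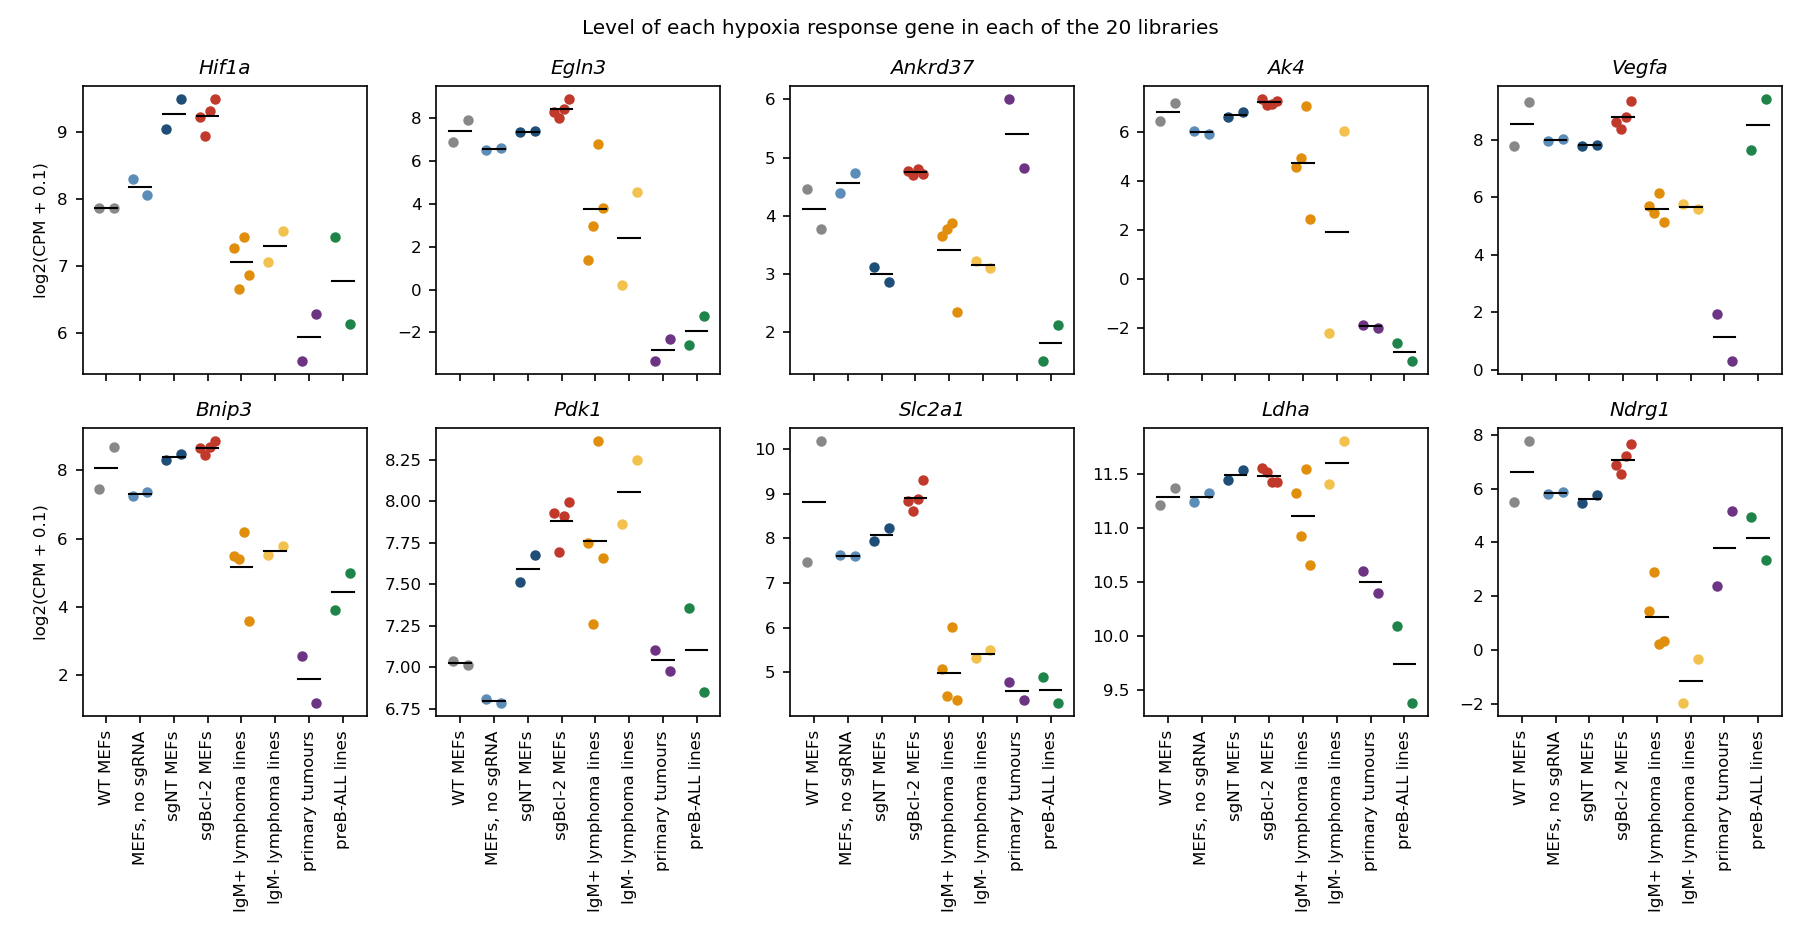
Level of each of the 10 genes in each of the 20 libraries, as log2(CPM + 0.1), by group on the horizontal axis; each dot is 1 library and each black line is the mean of its group. Ankrd37 is lowest among the MEFs in the 2 sgNT libraries, and Ak4 and Egln3 lie close to 0 CPM in the tumours and in preB-ALL.

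Ankrd37 encodes a small ankyrin repeat protein and is a direct HIF-1 target. The gene lies on the minus strand of chromosome 8 (GRCm38, 45996908 to 46000414). Both of its ends overlap genes of the opposite strand, Ufsp2 and Lrp2bp, and the library kit does not mark strand, so reads in the shared stretches cannot be told apart. Lrp2bp was at 0.0802 to 2.07 CPM and Ufsp2 at 31.1 to 53.1 CPM over the 20 libraries. Ak4 encodes a mitochondrial adenylate kinase, which exchanges phosphate between nucleotides, and lies on the plus strand of chromosome 4 (101416478 to 101467771).

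HIF binds a 5-base core, ACGTG or GCGTG. RefSeq promoter windows of GRCm38.p6, from 250 bases before to 50 bases after an annotated start, were found for 9 of the 10 genes, 15 windows in all. At least 1 core on either strand was present in 13 of the 15, against 43.8% of all 32851 windows. Windows of a gene can overlap, and 3 of the 4 of Ak4 hold the same pair of cores. By gene, 9 of 9 had a core in at least 1 window, against 46.7% of all genes with a window. CACGTG reads as a core on both strands and was counted once on each. The window of Ldha held the most matches, 7, followed by Bnip3 with 5 and Ankrd37 with 4. At least 3 matches were found in 8.93% of all windows. No match was found in 1 of the 2 windows of Vegfa and 1 of the 2 of Pdk1, which says only that these letters are not in those windows. The Vegfa window without a match is the one at the 5′ end of the annotated gene, so the count by gene rests on its other window. The windows of the 2 genes that the set is built on, and of Egln3 and Bnip3, which were also near their lowest levels in the tumours, are given 5′ to 3′ on the gene's strand, with the cores in capitals. Vegfa and Hif1a were near their lowest levels there too, and their windows are not given. The windows given are Ankrd37 at chr8:45999801-46000100 (minus strand), the Ak4 window with most matches at chr4:101419453-101419752 (plus strand), Egln3 at chr12:54203825-54204124 (minus strand) and Bnip3 at chr7:138909457-138909756 (minus strand).
Ankrd37: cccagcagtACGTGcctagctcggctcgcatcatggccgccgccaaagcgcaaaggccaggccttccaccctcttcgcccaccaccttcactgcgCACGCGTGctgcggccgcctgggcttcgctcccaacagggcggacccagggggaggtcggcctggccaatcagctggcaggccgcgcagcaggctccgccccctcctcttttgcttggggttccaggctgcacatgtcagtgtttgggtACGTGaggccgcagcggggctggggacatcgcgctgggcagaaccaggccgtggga
Ak4: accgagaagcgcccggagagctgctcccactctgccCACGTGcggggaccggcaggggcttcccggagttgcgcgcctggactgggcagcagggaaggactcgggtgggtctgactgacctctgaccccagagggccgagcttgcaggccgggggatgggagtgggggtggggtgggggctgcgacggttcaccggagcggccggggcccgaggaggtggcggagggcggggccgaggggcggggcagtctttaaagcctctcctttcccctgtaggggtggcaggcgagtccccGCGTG
Egln3: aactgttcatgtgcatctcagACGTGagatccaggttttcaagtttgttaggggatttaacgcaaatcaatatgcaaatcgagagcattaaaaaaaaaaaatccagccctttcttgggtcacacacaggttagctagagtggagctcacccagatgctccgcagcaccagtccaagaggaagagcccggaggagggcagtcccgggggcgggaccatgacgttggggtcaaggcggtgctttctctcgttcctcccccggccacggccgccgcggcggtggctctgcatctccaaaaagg
Bnip3: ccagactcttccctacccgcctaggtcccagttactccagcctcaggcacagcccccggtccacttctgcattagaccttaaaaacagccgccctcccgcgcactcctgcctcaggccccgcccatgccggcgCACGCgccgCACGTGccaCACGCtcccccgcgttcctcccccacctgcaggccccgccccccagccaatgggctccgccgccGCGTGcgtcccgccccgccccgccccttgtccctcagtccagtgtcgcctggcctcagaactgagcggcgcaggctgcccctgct
In the Ankrd37 window the cores begin 241, 155, 152 and 6 bases before the start, and the pair at 155 and 152 overlaps on opposite strands. The single core of Egln3 lies 229 bases before the start. None of these matches is evidence of binding in these cells. The 3 Bcl2 guides of the study matched the Bcl2 window without a mismatch beside a PAM, whereas their closest sites in the Ankrd37 window had 8 to 10 mismatches, a closeness that 8.87% to 56.5% of all windows had. The closest site in a window of the 10 genes, with 6 mismatches, was that of sgRNA3 in the Hif1a window, and 0.432% of all windows held one as close.

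**Figure D2:**
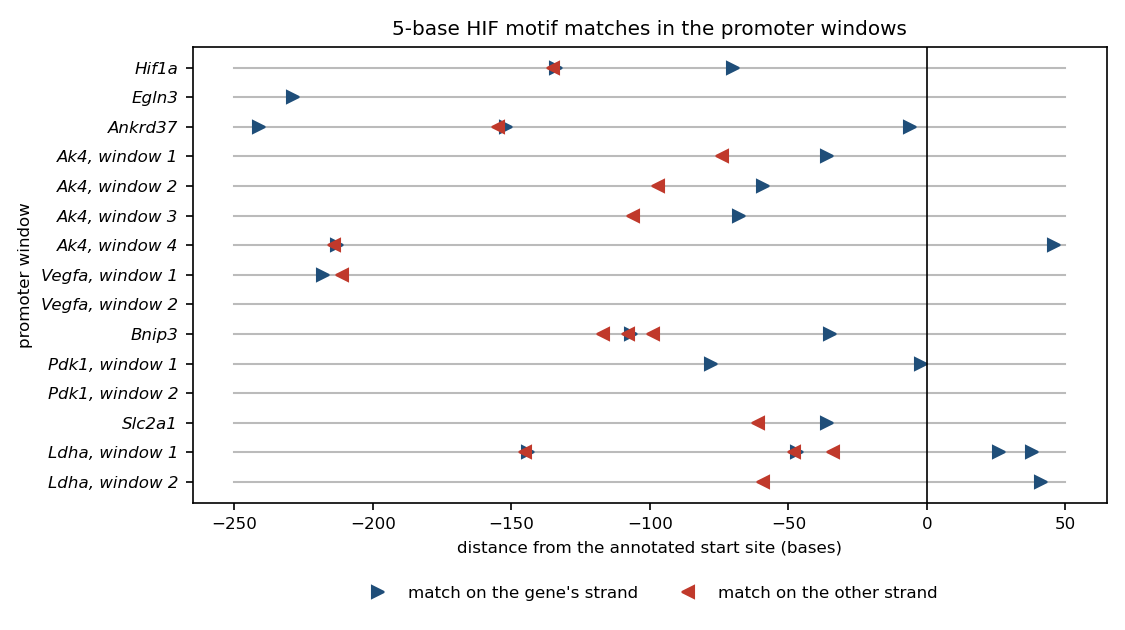
Position of each ACGTG or GCGTG match in the 15 promoter windows, as distance in bases from the annotated start site, with matches on the gene's own strand in blue and on the other strand in red. Ldha holds 7 matches in its first window and Egln3 holds 1.

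Within the MEFs, Ankrd37 separated the sgNT libraries from every other library. It was at 21.0 and 26.6 CPM without an sgRNA, 8.62 and 7.16 CPM with sgNT, and 27.3, 25.8, 27.8 and 26.3 CPM with sgBcl-2. The sgBcl-2 libraries lie close together, with a mean of 26.8 ± 0.938 CPM (SD, n = 4), and they overlap the libraries without an sgRNA. WT MEFs were at 21.9 and 13.5 CPM, also above both sgNT libraries. The fitted difference between sgBcl-2 and sgNT was 1.85 ± 0.095 (log2, SE), a 3.59-fold difference, and that between sgNT and no sgRNA was −1.59 ± 0.15. Both comparisons share the same 2 sgNT libraries, so they are not independent of each other.

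In none of the other 9 genes did both sgNT libraries lie below all other MEF libraries. Ndrg1, a stress-induced gene of growth-arrested cells, was at 44.2 and 54.2 CPM in the sgNT MEFs and at 119, 93.3, 149.6 and 205 CPM in the sgBcl-2 MEFs, with no overlap. Egln3, the prolyl hydroxylase that HIF itself induces as a brake, was higher in each of these 3 groups in turn: 92.4 and 98.0 CPM without an sgRNA, 162 and 170.4 CPM with sgNT, and 312, 262, 348 and 478 CPM with sgBcl-2. No library of one of these groups reached into the next. Vegfa, the main growth factor for blood vessels, was at 219 and 226 CPM with sgNT and 388, 330.5, 438 and 644 CPM with sgBcl-2. Slc2a1, the basal glucose transporter GLUT1, was at 244 and 301 CPM with sgNT and 458, 394, 469 and 632 CPM with sgBcl-2. In Ndrg1, Egln3, Vegfa and Slc2a1 alike, the second sgBcl-2 library of MEF line 2 was the highest of the sgBcl-2 libraries. Ak4 was at 95.9 and 112 CPM with sgNT and 160.5, 137, 140.1 and 151 CPM with sgBcl-2.

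The remaining 4 genes differed less between sgBcl-2 and sgNT. Pdk1, the kinase that keeps pyruvate out of mitochondria, was at 183 and 204 CPM against 244, 207, 241 and 255 CPM and did not overlap. Bnip3, a mitochondrial outer membrane protein that marks mitochondria for removal, was at 316 and 357 CPM against 404, 348, 408 and 462 CPM. Hif1a was at 528 and 723 CPM against 602, 494, 636 and 720.1 CPM. These last 2 overlapped. Ldha, which turns pyruvate into lactate, was at 2788 and 2974 CPM against 2998, 2926, 2749.6 and 2745 CPM, and its direction turned when no scaling factor was applied. Fitted log2 differences were 1.56 ± 0.27 for Ndrg1, 1.13 ± 0.21 for Egln3, 1.06 ± 0.23 for Vegfa, 0.92 ± 0.19 for Slc2a1, 0.59 ± 0.099 for Ak4, 0.38 ± 0.10 for Pdk1, 0.35 ± 0.12 for Bnip3, 0.08 ± 0.10 for Ldha and 0.07 ± 0.18 for Hif1a.

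As a description of these libraries, 6 of the 10 genes, Ankrd37 among them, were past the threshold (limma, Benjamini-Hochberg, 0.05) with sgBcl-2 above sgNT and 0 with it below, against 6.61% of all genes tested higher and 4.24% lower. The groups did not overlap, sgBcl-2 above, for 7 of the 10, against 13% of all genes. Since this contrast chose the set, nothing is read from these counts. Of 51 further genes of the pathway, all in the table and 49 of them tested, 14 were higher and 0 lower. Their median log2 difference was 0.23, against 0.75 for the 10 genes and −0.01 for all genes tested. The 4 transcription and chromatin genes of that list were all higher: Bhlhe40 by 1.81 and Bhlhe41 by 1.38, both repressors of the circadian clock, and Kdm3a by 0.66 and Kdm4b by 0.99, both histone demethylases. Of 16 glucose and glycolysis genes 5 were higher, with Hk2, which traps glucose in the cell, at 1.57 and Pfkfb3, which speeds glycolysis, at 1.30. Of 8 tested genes of HIF and oxygen sensing, only Vhl was higher, by 0.88. The 3 genes of the list whose sgBcl-2 libraries all lay below both sgNT libraries were Epas1, the second HIF alpha subunit, at −0.35, Hif1an, a HIF hydroxylase, at −0.26, and Pgam1 at −0.09. Without any scaling factor the share of higher genes among all calls was 38.4%, against 60.9% with it. Without sgNT library 1 or sgNT library 2, 1 and 2 of the 10 genes were past it, against 1.04% and 1.32% of all genes, in fits which assume that the lone sgNT library varies as the sgBcl-2 libraries do.

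**Figure D3:**
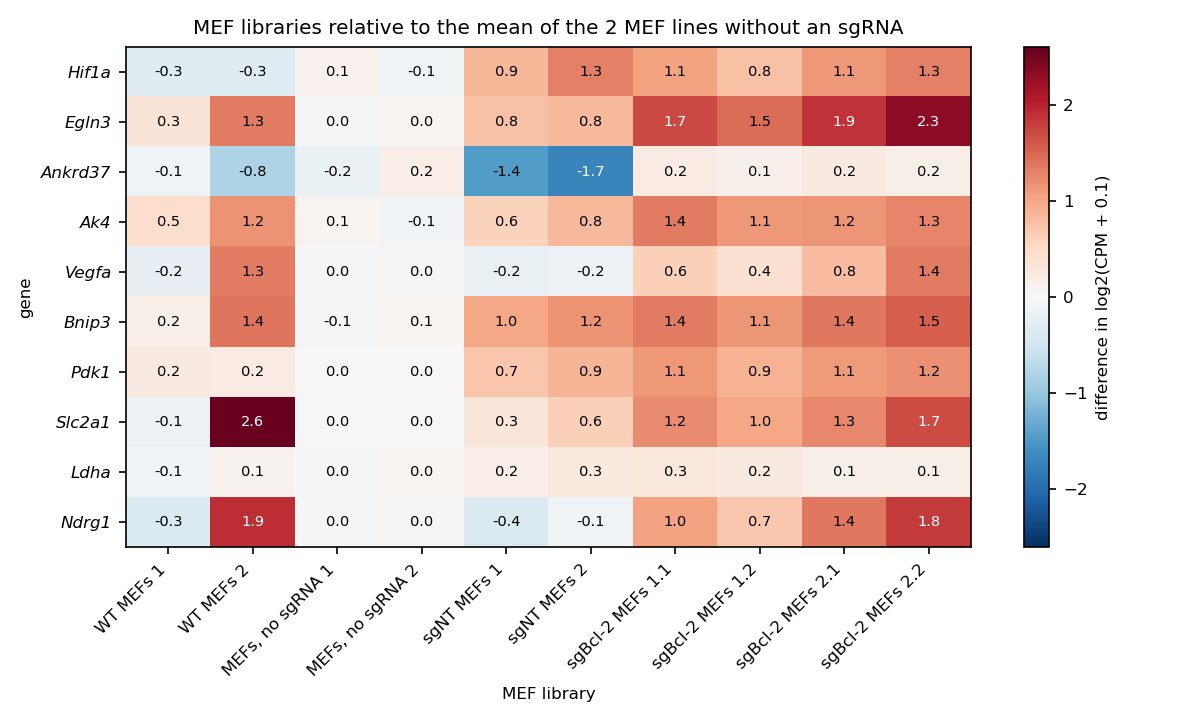
Difference of each MEF library from the mean of the 2 MEF lines without an sgRNA, in log2(CPM + 0.1), for the 10 genes (rows) and the 10 MEF libraries (columns). The sgNT columns are at −1.44 and −1.71 for Ankrd37 while 6 of the other 9 genes are above 0 by 0.32 or more there, and WT MEFs 2 is at 2.57 for Slc2a1.

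The comparison of sgNT with untransduced MEFs of the same 2 lines set 1 non-targeting guide against none, in which the guide and the transduction cannot be told apart. Hif1a, Bnip3, Egln3, Pdk1, Ak4 and Slc2a1 were higher with sgNT. Hif1a was at 315 and 267 CPM without an sgRNA and 528 and 723 CPM with sgNT (log2 difference 1.07 ± 0.16, limma adjusted p = 0.00151). Bnip3 was at 152 and 164 CPM against 316 and 357 CPM (1.07 ± 0.093, limma adjusted p = 0.000147). In both genes each sgNT library lay above both libraries without an sgRNA. Egln3, with the values above, differed by 0.79 ± 0.074 (limma adjusted p = 0.000214), and Pdk1, at 112 and 110.3 CPM against 183 and 204 CPM, by 0.78 ± 0.084 (limma adjusted p = 0.000361). Ak4 was at 65.6 and 60.2 CPM against 95.9 and 112 CPM, a difference of 0.71 ± 0.10 (limma adjusted p = 0.00131), and Slc2a1 at 198 and 194 CPM against 244 and 301 CPM, 0.45 ± 0.11 (limma adjusted p = 0.0144). The genes that did not pass were Vegfa at −0.19 ± 0.072 (limma adjusted p = 0.0638), Ndrg1 at −0.25 ± 0.11 (limma adjusted p = 0.116) and Ldha at 0.20 ± 0.13 (limma adjusted p = 0.246). In a fit over all 10 MEF libraries, the calls of Bnip3 (limma adjusted p = 0.0743), Egln3 (0.185), Ak4 (0.0618) and Slc2a1 (0.733) were lost, and that of Slc2a1 also without a low-count filter. Over the alternatives the adjusted p of Hif1a was at most 0.0304 and that of Pdk1 at most 0.0198. Ankrd37 went the other way from the 6, with no test since its sgNT level chose it.

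Genes that passed were common here: 20.3% of all genes were higher and 20.9% lower with sgNT. Of the 49 tested pathway genes, 22 were higher and 9 lower, with a median of 0.27 against 0.58 for the 10 genes and 0.00 for all genes. In the mitochondria and growth group, 5 of 6 were higher: Cox4i2, a cytochrome oxidase subunit of low-oxygen tissue, by 2.96 ± 0.15, Mxi1, a MYC antagonist, by 1.05 ± 0.12, Fam162a by 1.04 ± 0.071, Higd1a by 0.89 ± 0.081 and Bnip3l, the relative of Bnip3, by 0.53 ± 0.079. Ddit4, an inhibitor of mTORC1, was lower by a log2 difference of −0.54 ± 0.099. Of the glycolysis genes, 8 of 16 were higher, with Aldoc at 1.64 ± 0.19, and Hk2 was lower at −0.77 ± 0.15. Bhlhe40 was lower at −1.40 ± 0.071. Edn1, a secreted vessel factor, was lower at −1.44 ± 0.098, and Tfrc, which takes up iron, at −1.13 ± 0.10.

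Ankrd37 and Bhlhe40 thus had a like pattern over the MEFs. Bhlhe40 was at 109 and 115 CPM without an sgRNA, 44.8 and 41.0 CPM with sgNT, and 137, 114, 127 and 204 CPM with sgBcl-2. Across the 10 MEF libraries, Ulk3, Fam20c, Ptpn3, Bhlhe40 and Rassf8 had the patterns most like Ankrd37 among 13310 genes, with Pearson r of log2 CPM from 0.92 to 0.94. The other 9 genes of the set had r of −0.03 to 0.42 with Ankrd37, the highest of them Vegfa. These libraries share MEF lines and fall into groups, so r is a description.

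The dCas9a-SAM MEFs were also compared with WT MEFs, from other embryos. Of the 10 genes 0 passed limma, neither with sgNT nor without an sgRNA, and 0% of all genes did in either comparison. At an unadjusted p under 0.05, 2 of the 9 genes other than Ankrd37 passed for sgNT and 1 of the 10 for no sgRNA, against 4.05% and 7.43% of all genes. edgeR called 0 in both, as it did of all genes, and DESeq2 called 1 for sgNT, against 0.57% of all genes, and 0 for no sgRNA, against 1.29%. The 2 WT libraries differed widely from each other: Slc2a1 was at 177 and 1162 CPM, Ndrg1 at 45.2 and 219 CPM, Vegfa at 217 and 635 CPM, Bnip3 at 175 and 414 CPM and Egln3 at 119.7 and 241 CPM. In each of these 5 genes the high value was that of WT MEF library 2, the one with macrophage markers, whose part in these values was not tested. Hif1a, at 233 and 234 CPM, Pdk1, at 131 and 129 CPM, and Ldha, at 2368 and 2634 CPM, were alike in both. Ak4 was at 85.9 and 142 CPM.

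Without WT MEF library 2, 5 of the 9 genes other than Ankrd37, whose sgNT level chose the set, passed limma between sgNT and WT MEFs and 4 of the 10 passed between MEFs without an sgRNA and WT MEFs, where the lone WT library is assumed to vary like the other group. Of all genes 11.2% and 31.8% then passed. Hif1a was then 1.34 ± 0.18 higher with sgNT (limma adjusted p = 0.00158), against 1.41 ± 0.27 with both libraries (limma adjusted p = 0.8), and its adjusted p ranged from 0.00158 to 1 over the alternatives. Bnip3 was 0.87 ± 0.12 higher and Ndrg1 0.05 ± 0.14, whereas with both WT libraries Ndrg1 was at −1.01 ± 0.76. Without WT MEF library 1 in its place, 6 of those 9 and 7 of the 10 genes passed, against 53.4% and 55.1% of all genes, and Ndrg1 was then at −2.03 with sgNT (limma adjusted p = 0.00528) and Slc2a1 at −2.39 without an sgRNA (limma adjusted p = 0.0049). For MEFs without an sgRNA, leaving out WT MEF library 2 turned Slc2a1 from −1.17 ± 0.90 to 0.09 ± 0.077. Ankrd37 was at 0.49 ± 0.39 without an sgRNA against WT (limma adjusted p = 0.811), and at 0.05 ± 0.15 without that library.

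Among the 6 lymphoma lines the 10 genes spread very unevenly. Ak4 ranged over 1134-fold, from 0.117 CPM (3 reads) in line E to 133 CPM in line C, with 23.6 CPM in line A, 30.0 in line B, 5.28 in line D and 64.9 in line F. Egln3 ranged over 106-fold, at 2.51, 7.83, 112 and 13.7 CPM in lines A, B, C and D and at 1.05 and 23.5 CPM in lines E and F. Line C was highest and line E lowest for both genes. Ndrg1 was low throughout, at 0.156, 1.10 and 7.42 CPM as lowest, median and highest, and its highest line was line B. Bnip3 ranged from 11.9 CPM in line D to 72.4 CPM in line C, a 6.08-fold range.

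The other genes varied less. Slc2a1 was at 20.6, 36.8 and 64.6 CPM as lowest, median and highest, Ankrd37 at 4.98, 10.9 and 14.6 CPM and Ldha at 1608, 2631 and 3569 CPM. Pdk1 was at 154, 224 and 329 CPM, Vegfa at 34.7, 49.7 and 70.1 CPM and Hif1a at 101, 145 and 184 CPM. Line C had the highest value of 7 of the 10 genes, line F of 2 and line B of 1. Line D had the lowest value of 5, line E of 3 and line B of 2. Per kilobase of exon, Ldha led in the lines at 774 ± 214.4 CPM per kb (SD, n = 6), Pdk1 was second at 30.8 ± 8.46 and Ndrg1 was last at 0.331 ± 0.409. In the sgBcl-2 MEFs Ldha also led, at 862 ± 38.5 CPM per kb (SD, n = 4), followed by Bnip3 at 179.1 ± 20.6, with Ankrd37 last at 17.4 ± 0.61.

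The 2 IgM-negative lines were compared with the 4 IgM-positive lines. By limma, 0 of the 10 genes passed, against 0.597% of all genes in either direction. Apart from Ndrg1, which is given without a test, none was under an unadjusted p of 0.05, against 11.3% of all genes. edgeR and DESeq2 also called 0 of the 10, against 0.194% and 6.05% of all genes. Ndrg1 was at 0.156 and 0.690 CPM in the IgM-negative lines and at 1.06 to 7.42 CPM in the IgM-positive lines, with no overlap (log2 difference −2.33 ± 0.90). It had 4 and 16 reads in the IgM-negative lines and passed the low-count filter through the IgM-positive lines, where it is high, so no test is given. Egln3 differed by −1.30 ± 1.73 (limma adjusted p = 0.811) and turned to 0.86 without line E. Ankrd37 differed by −0.20 ± 0.47 (limma adjusted p = 0.900). Ak4 was at 0.117 and 64.9 CPM in the IgM-negative lines, below and within the IgM-positive range, so IgM status did not order it. Of the 42 tested pathway genes 1 passed: Higd1a, a mitochondrial gene induced by low oxygen, was at 3.91 and 1.55 CPM in the IgM-negative lines and 21.3 to 47.2 CPM in the IgM-positive lines (−3.61 ± 0.46, limma adjusted p = 0.0362). Neither edgeR nor limma-voom called it, and DESeq2 called 3 pathway genes.

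Ak4 was almost absent from both primary tumours. It was at 0.175 and 0.15 CPM (4 and 3 reads), against 23.6 and 30.0 CPM in line A and line B, which came from the same 2 mice. Pooled over libraries, the lines held 165-fold more Ak4 (95% exact interval 79.8 to 411, for counting error only). These values chose the gene. Egln3 had 0 and 2 reads in the tumours, and 0 reads allow up to 0.131 CPM at that depth. The 2 lines held 113-fold more of it, with an exact interval of 31.0 to 939. Vegfa was at 3.77 and 1.15 CPM in the tumours against 51.3 and 43.3 CPM in the lines, and Bnip3 at 5.78 and 2.19 CPM against 44.7 and 42.1 CPM. The pooled ratios were 18.5 (15.3 to 22.7) and 10.6 (9.05 to 12.4). Egln3, Vegfa and Bnip3 were lower in both tumours than in any of the 6 lines, and so were Hif1a, Pdk1 and Ldha, whose values follow. No share over all genes was taken for this order. Line E, at 0.117 CPM, held as little Ak4 as the tumours did.

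Hif1a was at 48.2 and 78.1 CPM in the tumours against 155 and 101 CPM in the 2 lines, Pdk1 at 137.5 and 126 against 215 and 154 CPM, and Ldha at 1547 and 1346 against 2561 and 1937 CPM. None of these 3 overlapped. Slc2a1, at 27.4 and 20.8 CPM against 33.5 and 22.1 CPM, overlapped. The other 2 genes were not lower. Ndrg1 was at 5.13 and 36.1 CPM against 2.64 and 7.42 CPM and overlapped. Ankrd37 was at 64.2 and 28.1 CPM in the tumours, against 12.5 and 13.6 CPM in the lines of the same mice and at most 14.6 CPM in any line. These are its highest values in the 20 libraries. In tumours, fewer cells of a type and less RNA per cell cannot be told apart.

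As a description, Ak4 alone of the 10 genes was past the limma threshold, on the lower side, and 0 were on the higher side, against 0.0629% of all genes lower and 0.267% higher. The tumours did not overlap the 2 lines for 7 genes that were lower, against 26% of all genes, and for 1 gene that was higher, against 31.1%. Since the contrast chose the set, nothing is read from these counts, which ran from 0 to 6 of the 10 genes over the alternatives. With the mouse as a block, 6 of the 10 genes, against 28.3% of all genes, were past the threshold when the mouse numbers in the titles paired tumours and lines, and 0, against 0%, with the numbers in the descriptions, which are the opposite. Fitted log2 differences were −6.71 ± 0.41 for Ak4, −5.04 ± 0.78 for Egln3, −4.47 ± 0.62 for Vegfa, −3.61 ± 0.52 for Bnip3, −1.08 ± 0.37 for Hif1a, −0.67 ± 0.26 for Ldha, −0.51 ± 0.24 for Pdk1, −0.24 ± 0.33 for Slc2a1, 1.55 ± 1.10 for Ndrg1 and 1.65 ± 0.44 for Ankrd37. The median of the 10 was −0.88, against −0.40 for 41 tested pathway genes and 0.01 for all genes tested.

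Of the 41 tested pathway genes 0 passed limma. In 19 the tumours lay below both lines and in 5 above, against 26% and 31.1% of all genes. The largest differences below were −1.68 for Tfrc, −1.58 for Hk2, −1.54 for Epas1, which was under 1 CPM in these 4 libraries, and −1.41 for Ero1a, an oxidase of the secretory pathway. Those below also included the oxygen sensor Egln1, at 53.4 and 42.0 CPM against 91.2 and 86.5 CPM, the HIF partner Arnt, at 39.4 and 39.8 against 59.7 and 78.1 CPM, and Bnip3l, at 56.4 and 44.2 against 107 and 83.4 CPM. Those above were Pfkfb4 at 1.61, Aldoc at 1.51, Bhlhe41 at 0.37, Slc2a3 at 0.31 and Gapdh at 0.21. The adenylate kinase Ak3 was present in the tumours, at 183 and 106 CPM against 180.4 and 295 CPM in the 2 lines. Markers of other cells moved with this contrast. The macrophage list summed to 19.4 and 28.2 CPM in the tumours, with 5 of its 8 genes at 1 CPM or more, against 5.80 and 6.15 CPM in the 2 lines, with 2 of 8. Fibroblast markers summed to 2.58 and 2.69 CPM, T cell markers to at most 2.10, red cell markers to at most 3.39 and neutrophil markers to at most 3.49 CPM. B cell markers summed to 4436 and 4918 CPM in the tumours and 1092 to 1925 CPM in the 6 lines. The part of these cells in the result was not tested.

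**Figure D4:**
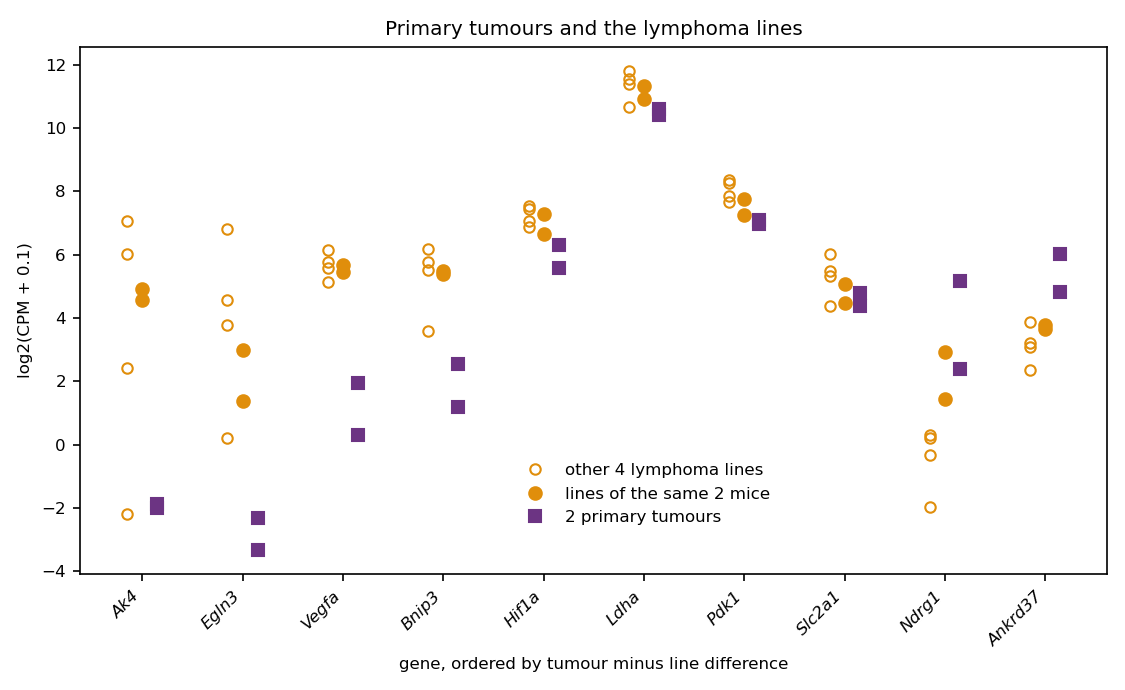
Level of the 10 genes, as log2(CPM + 0.1), in the 2 primary tumours (squares), the lines of the same 2 mice (filled circles) and the other 4 lymphoma lines (open circles), ordered from left by the difference between tumours and lines. Ak4 is at 0.175 and 0.15 CPM in the tumours and Ankrd37, at the right, lies above all 6 lines.

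The 6 lymphoma lines were compared with preB-ALL, the other B-lineage malignancy of the series. Ankrd37, Ldha and Pdk1 were higher in the lymphoma lines, and Vegfa and Ndrg1 were lower. Ankrd37 had 2.74 and 4.25 CPM in preB-ALL, below its 4.98 to 14.6 CPM of the 6 lines (1.87 ± 0.44, limma adjusted p = 0.00971, from 0.000421 to 0.0816 over the alternatives). Ldha was at 1089 and 666 CPM in preB-ALL, below every line (1.90 ± 0.37, limma adjusted p = 0.00411, from 2.19e-06 to 0.0739). Pdk1 was at 164 and 115 CPM and overlapped the lowest line (1.12 ± 0.32, limma adjusted p = 0.0213, from 0.00584 to 0.261). Egln3 had 1 and 4 reads in preB-ALL, 0.0668 and 0.321 CPM, below the 1.05 to 112 CPM of the lines. It entered the fit only through the lines, where it is high, so no test is given.

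Vegfa and Ndrg1 had the opposite order. Vegfa was at 197 and 679.5 CPM in preB-ALL, about as high as in the MEFs (217 to 644 CPM), and at most 70.1 CPM in any lymphoma line (−2.53 ± 0.42, limma adjusted p = 0.00175, from 1.01e-09 to 0.0175). It was called without either preB-ALL library, at −3.41 and −1.74. Ndrg1 was at 31.1 and 10.0 CPM (−3.37 ± 1.12, limma adjusted p = 0.0395, from 0.0126 to 0.255). Bnip3, Slc2a1 and Hif1a, at 14.8 and 31.5, 29.5 and 19.9, and 173 and 70.3 CPM in preB-ALL, overlapped the lines and did not pass. Ak4 had 1 and 0 reads in preB-ALL, and 0 reads allow up to 0.240 CPM there. The 6 lines held 1217-fold more Ak4 in pooled CPM, with an exact interval of 218 to 48087 for counting error only. Line C and line F carry most of that ratio, and line E, at 0.117 CPM, is not shown to exceed preB-ALL.

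Genes that passed were frequent in this comparison too: 20.9% of all genes were higher in the lymphoma lines and 22.5% lower, and of the 8 genes other than Ak4 and Egln3, 3 were higher and 2 lower. Without a scaling factor the median of all genes moved by −0.35 on the log2 scale, and the share of higher genes among all calls was 27.8%, against 48.1% with it. Without the CreER-LSL-Erg library 4 of these 8 genes passed, against 35.3% of all genes, and without the Rag-Cre-Erg library 2 did, against 22.2%, with the lone library assumed to vary like the lines. Ankrd37 was then at 1.57 ± 0.59 and 2.08 ± 0.59 and Ldha at 2.27 and 1.45. Of 46 tested pathway genes 16 were higher and 10 lower in the lymphoma lines. Of the 16 glycolysis genes 10 were higher, led by Pgk1 at 5.66, Pgam1 at 4.8 and Gapdh at 4.32. Of the other groups, Bhlhe41 led at 4.66. Pgk1, Pgam1 and Gapdh have near-identical copies elsewhere in the genome, so their counts are uncertain. In preB-ALL they were at 6.15 and 4.65, 35.3 and 18.4, and 18.0 and 27.5 CPM. Whether the count of Ldha is uncertain in the same way was not tested. The genes that were lower included Lox at −8.10, Plod2 at −6.12 and P4ha2 at −4.44, which are matrix genes that the MEFs also express. Fibroblast markers were 1259 and 2760 CPM in the same 2 preB-ALL libraries, and their part was not tested.

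The last comparison set the sgBcl-2 lymphoma lines against the sgBcl-2 MEFs, the same guide target in another cell type. Of the 8 genes other than Ankrd37 and Ak4, 6 were lower in the lymphoma lines and 0 higher, against 45% of all genes lower and 36.3% higher. Ndrg1 was −6.83 ± 0.75 lower in log2 (limma adjusted p = 9.13e-06), Egln3 −5.30 ± 1.07 (limma adjusted p = 0.00091), Slc2a1 −3.96 ± 0.32 (limma adjusted p = 6.94e-07), Bnip3 −3.51 ± 0.42 (limma adjusted p = 1.7e-05), Vegfa −3.33 ± 0.23 (limma adjusted p = 1.55e-07) and Hif1a −2.28 ± 0.19 (limma adjusted p = 9.35e-07). None of these 6 overlapped between the cell types. Ankrd37 was at −1.60 ± 0.27 and Ak4 at −3.58 ± 1.5, given without a test, and Ak4 in line C, at 133 CPM, was close to the lowest sgBcl-2 MEF library at 137 CPM. Pdk1 at −0.20 ± 0.21 (limma adjusted p = 0.387) and Ldha at −0.38 ± 0.22 (limma adjusted p = 0.127) did not pass. Ldha was called lower by DESeq2 and by limma with RLE scaling, which called 80.9% and 81.2% of all genes in either direction. Of 49 tested pathway genes 37 were lower and 3 higher: Car12, a carbonic anhydrase, by 3.03, Tfrc, the transferrin receptor, by 2.75, and the glucose transporter Slc2a3 by 1.15. All 5 matrix genes were lower, with Lox at −12.09, Plod2 at −11.19 and P4ha2 at −9.97. Slc2a1 and Slc2a3 thus had opposite order between the cell types: Slc2a3 was at 13.5 to 22.5 CPM in the sgBcl-2 MEFs and 38.8 to 46.9 CPM in the lines.

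**Figure D5:**
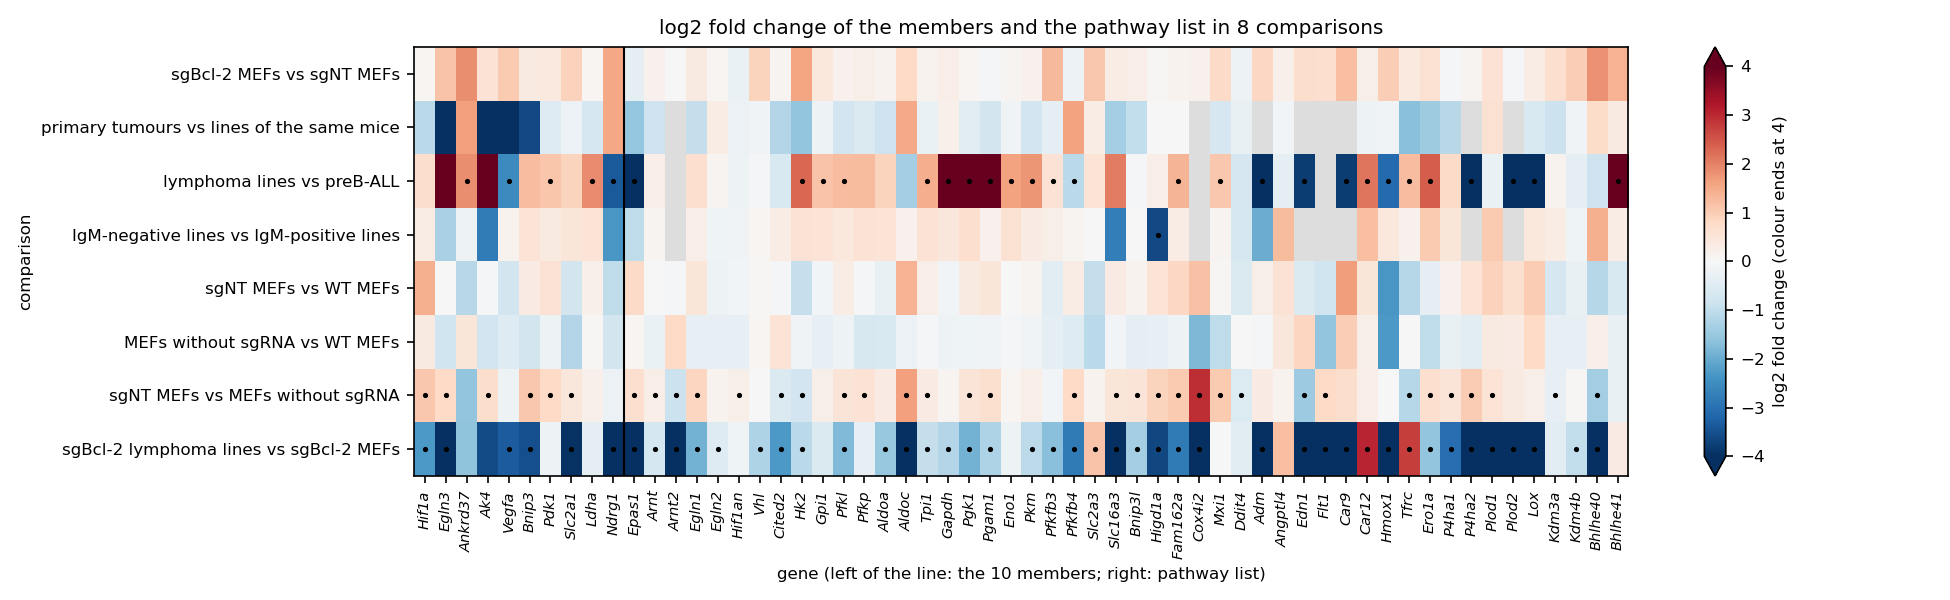
log2 fold change of the 10 genes (left of the line) and all but 1 of the tested pathway genes (right) in the 8 comparisons; colour ends at 4, grey means not tested, and a dot marks a limma adjusted p under 0.05. No dot is drawn in the top 2 rows, whose contrasts chose the set, nor for Ankrd37 and Ak4 in comparisons that share those libraries, nor for Egln3 against preB-ALL. In the row of sgNT MEFs against MEFs without an sgRNA, 6 of the 10 genes carry a dot.

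Relatives of the 10 genes in the same families had levels of their own. Ak1, the cytosolic adenylate kinase, was at 135 to 383 CPM in the MEFs and at most 0.341 CPM in the 6 lymphoma lines, while Ak3, a mitochondrial relative, was lower in the MEFs (49.0 to 59.4 CPM) than in the lines (170.1 to 522 CPM). Ak5 did not exceed 18.3 CPM in any library. Line E, with 3 reads of Ak4, was at 194 CPM of Ak3. Pdk3 was at 6.07 to 40.0 CPM in the lines and Pdk2 at 3.88 to 7.5 CPM, while Pdk4 had at most 0.0498 CPM there and none in the tumours. Ldhb was at 15.9 to 25.4 CPM in the MEFs and at most 2.36 CPM in the lines, and Ldhc did not exceed 0.0668 CPM anywhere. Between the lymphoma lines and preB-ALL, Ak3 was higher in the lines by 1.42 (limma adjusted p = 0.0211). Ak1, Ak5, Pdk4, Ldhb, Ndrg4, Vegfc and Vegfd, all of which the MEFs also hold, were at 1.52 to 19.3 CPM in preB-ALL and at most 2.36 CPM in the lines. The part of the fibroblast markers of those libraries, 1259 and 2760 CPM, in these levels was not tested.

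Of the oxygen sensors, Egln1 was at 152 to 417 CPM in the MEFs, 83.8 to 158 CPM in the lines and 42.0 and 53.4 CPM in the tumours. Egln2 varied little, from 52.4 to 110 CPM over the 20 libraries, where Egln3 ran from 0 to 478 CPM. Epas1 was at 6.91 to 111 CPM in the MEFs and at most 0.730 CPM in the lymphoma lines and tumours, and Hif3a did not exceed 6.35 CPM. Vegfb was at 24.3 to 60.7 CPM in the lines and tumours, where Vegfc and Vegfd stayed under 1 CPM. Ndrg3 was at 45.6 to 90.4 CPM in all libraries, whereas Ndrg4, like Ndrg1, was high in the MEFs (101 to 240.4 CPM) and at most 1.84 CPM in the lines and tumours. Ndrg2 was at 24.1 to 101 CPM in the MEFs and 5.65 and 11.6 CPM in the tumours. The genes nearest to Ankrd37 were 1700029J07Rik, at 0.339 to 9.67 CPM, and Snx25, at 38.5 to 88.3 CPM. Those nearest to Ak4 were Jak1, at 91.3 to 460.2 CPM, and Dnajc6, at 0 to 63.3 CPM with its highest value in line D.

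Over the 8 groups, the genes had different orders of mean level. The highest mean was in the sgBcl-2 MEFs for Egln3, Ak4, Vegfa, Bnip3 and Ndrg1, in the IgM-negative lines for Pdk1 and Ldha, in the sgNT MEFs for Hif1a, in the WT MEFs for Slc2a1, by WT MEF library 2 alone (1162 CPM, against 177 CPM in library 1, its lowest MEF value), and in the tumours for Ankrd37. The place of the sgNT MEFs in the order of Ankrd37, and of the tumours in that of Ak4, chose the set. The means of Ankrd37 ran from 46.2 CPM in the tumours to 26.8 in sgBcl-2 MEFs, 23.8 in MEFs without an sgRNA, 17.7 in WT MEFs, 11.4 in IgM-positive lines, 8.83 in IgM-negative lines, 7.89 in sgNT MEFs and 3.49 CPM in preB-ALL. Among neighbours in that order, only the tumours and sgBcl-2 MEFs, and the sgNT MEFs and preB-ALL, did not overlap. Ak4 ran from 147 ± 10.8 CPM in sgBcl-2 MEFs (SD, n = 4) through 114 in WT, 104 in sgNT and 62.9 CPM in MEFs without an sgRNA to 47.9 and 32.5 CPM in IgM-positive and IgM-negative lines, 0.162 in tumours and 0.0334 CPM in preB-ALL. Of those neighbours, sgNT MEFs and MEFs without an sgRNA did not overlap, and the tumours, with 4 and 3 reads, and preB-ALL, with 1 and 0, could not be told apart at this depth. Egln3 had the pattern most like Ak4 over the 20 libraries among 13688 genes, with r = 0.95, followed by Prickle1, Oxsr1, Btbd7 and Mob1b at 0.90 to 0.91. Over the 10 lymphoid libraries Akap5, Cep44, Pcid2, Egln3 and Patl1 were most like it, with r from 0.90 to 0.95. Ankrd37 had r = 0.37 with Ak4 over the 20 libraries. These libraries fall into cell types and share mice and lines, so the values describe the pattern only.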

How the data were processed

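The deposited values are CPM per Entrez gene, the reads of a gene scaled to a common library total, in 20 RNA-seq libraries. The authors aligned reads with Rsubread to GRCm38 (mm10) and used edgeR and limma with voom, and the CPM were deposited without a log. Each column stepped in whole reads (100% of values within 0.02), so reads were recovered from it. Symbols came from RefSeq GRCm38.p6 and matched 25242 of 25869 identifiers. The members and lists were chosen with earlier results of these data known.

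Libraries were grouped by their labels. The main test was limma 3.58.1 (eBayes with trend) on log2(CPM divided by the TMM factor + 0.1) after edgeR's filterByExpr on the recovered reads, in R 4.3.3, over the libraries of each comparison, with Benjamini-Hochberg adjustment over all genes tested and a threshold of 0.05. All 10 members passed the filter in each of the 8 comparisons. Fold changes on this scale understate the change of low genes. Alternatives were edgeR 4.0.16 quasi-likelihood, DESeq2 1.42.0, limma-voom, other scaling, pseudocounts and filters, fits with a block, and each library left out. The fits were tested on simulated data. Intervals of read ratios are exact and cover counting error only. Members were named in full. Pathway genes were the up to 4 with the largest called change in each direction, and others (Kdm3a, Kdm4b, Vhl, Higd1a, Bnip3l, Ddit4, Hk2 and Arnt where outside that rule) were named after their values were seen. The values of some genes of these lists are not reported here. The dCas9a-SAM MEF groups share line numbers in their labels, which were read as the same 2 lines. The line differences correlated across 15158 genes with r = 0.33 between sgNT and sgBcl-2 MEFs, −0.05 between no sgRNA and sgNT and −0.13 between no sgRNA and sgBcl-2. For WT MEFs, from other embryos, r was 0.049 with no sgRNA, 0.055 with sgNT and 0.18 with sgBcl-2. The pairing of the MEFs without an sgRNA with the other groups therefore rests on the labels alone.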

Additional observations from a re-analysis of the deposited data

Results flagged for a closer look

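Egln3 in line C, at 112 CPM, stood apart from the other lymphoma lines. Its gap to the next line was 0.798 of the range of the 6 lines and 0.898 of the range of the 4 IgM-positive lines, both past the 95% critical value of Dixon's test. Ndrg1 in line B, at 7.42 CPM, stood apart among the 6 lines, with a gap of 0.659 of their range. In all, 30 sets of values were examined, and chance flags about 5% of sets.

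Ldha moved in opposite directions in the 2 MEF lines. On the log2 scale after TMM scaling over all 20 libraries, both sgBcl-2 libraries of line 1 were above the sgNT library of that line, and both of line 2 were below theirs, by −0.0336 on average. Without scaling, those of line 2 were 0.146 and 0.143 above the mean of the lines without an sgRNA, and their sgNT library was 0.259 above it. The opposite directions themselves were not tested in this way. In a limma fit with an interaction of line and guide over these libraries, the smallest unadjusted p among the 10 genes was 0.154, and the smallest adjusted p was 1.00.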

How the results depend on the processing

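Of 815 values of the 10 genes under the alternatives run, 754 were counted as unchanged, and 200 of 250 counts of called genes stayed within 1.5 times. Unchanged meant the same direction and the same side of the threshold. In the contrasts and for the genes that chose the set, it meant a log2 difference that moved by less than the residual SD of the main fit. There, a change of sign in an uncalled difference smaller than that SD also counted as unchanged. The cause was not tested for any of the others. Counts below are of the 10 genes and then, where given, of the pathway genes, against the report's values, and include genes that are given no test there.

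For sgBcl-2 against sgNT MEFs, a fit over all 10 MEF libraries called 1 and 3 (0.422% of all genes). Leaving out 1 library gave 1 to 7 and 4 to 15, with the low counts (1 or 2, and 4 or 5) without either sgNT library. Ldha turned to −0.013 without a scaling factor. For tumours against lines of the same mice, edgeR called 0 of the 10 genes, limma-voom 0, RLE scaling 0 and no low-count filter 0, DESeq2 called 5 and 13 (16.5% of all genes), comparing all 4 IgM-positive lines gave 4 and 2 (10.9%), and all 6 lines gave 5 and 10 (19.7%). Leaving out any 1 library gave 0. For lymphoma lines against preB-ALL, leaving out 1 library gave 2 to 7 and 13 to 25, lowest without the Rag-Cre-Erg library. Of the 8 genes other than Ak4 and Egln3 it gave 2 to 5. For IgM-negative against IgM-positive lines, edgeR called 0 pathway genes, limma-voom 0 and DESeq2 3, leaving out 1 line gave 0 to 1, and Egln3 ran from −3.45 to 0.86, positive without line E only. For sgNT against WT MEFs, DESeq2 called 1 of the 10 (0.57% of all genes) and the fit over all MEF libraries called 1 and 1 (0.449%). With 1 library left out, Ndrg1 ran from −2.03 to 0.048. For MEFs without an sgRNA against WT MEFs, DESeq2 called 3 pathway genes (1.29% of all genes) and the fit over all MEF libraries 2 (4.73%). Leaving out 1 library gave 0 to 7 and 0 to 32, against 0% to 55.1% of all genes. The highest counts came without WT MEF library 1, where the lone WT library is assumed to vary like the other group. With 1 library left out, Slc2a1 ran from −2.39 to 0.088. For sgNT MEFs against MEFs without an sgRNA, the fit over all MEF libraries called 3 and 10 (5.94%), and 2 of the 9 genes other than Ankrd37.

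With the MEF line as a replicate block, 8 of the 10 genes and 16 pathway genes were called between sgBcl-2 and sgNT MEFs (14.6% of all genes), and 8 and 23 when the sgBcl-2 libraries of a line were also summed (17.6%). That contrast chose the set, so nothing is read from these counts. With this pairing, 7 and 30 were called between sgNT MEFs and MEFs without an sgRNA (36.9%), with 6 of the 9 genes other than Ankrd37, and 0 and 0 in both comparisons with WT MEFs, whose numbers name other embryos. With the mouse as a block, the tumour contrast gave 6 and 13 by the titles' pairing (28.3%) and 0 and 0 by that of the descriptions. Over all genes, the tumour contrast had 42 calls by limma, 0 by edgeR and 2100 by DESeq2, with 3295 genes at an unadjusted p under 0.05. With 2 libraries in most groups, a difference that missed the threshold is not shown to be absent, and values of a few reads rest on counting error as well.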
